A study of Mus musculus with 18 samples.

Results

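The regions described here were stretches of the mouse genome that carried H3K9me2 domains in embryonic stem cells (ESC) and in cardiomyocytes (CM) alike, carried no Lamin B domain in either, and began or ended beside a Lamin B domain. H3K9me2 is histone H3 dimethylated at lysine 9. Each chromosome from 1 to 19 was divided into bins of 1 kb, and each bin was marked as inside or outside a domain of 4 deposited lists, for Lamin B and for H3K9me2 in each cell type. Unbroken stretches of at least 20 kb in both H3K9me2 lists and in neither Lamin B list numbered 973. Those with an edge at most 20 kb from a Lamin B domain of either list, called flanking stretches below, numbered 391. They made up 40.2% of the 973 (Wilson 95% interval 37.1 to 43.3) and 5.85% of the 6686 stretches of at least 20 kb in any single combination of the 4 lists. The other 582 lay farther from Lamin B.

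The study mapped Lamin B and H3K9me2 by ChIP-seq, in which DNA bound by an antibody target is recovered and sequenced, to follow lamina contact during cardiac differentiation. Wild-type ESC were grown without feeders in 2i medium with LIF, and CM were obtained from them through embryoid bodies and collected on day 10. Each wild-type combination of cell type and antibody had 2 libraries. A second ESC line, CMV-creERT; Hdac3f/f, carries floxed alleles of the histone deacetylase gene Hdac3 and a tamoxifen-dependent Cre whose name gives the CMV promoter. Untreated cells of this line were profiled for Lamin B in 2 libraries and for H3K9me2 in 2. Cells in which Hdac3 was deleted with 1 µg/ml tamoxifen for 24 h were profiled for Lamin B only, in 2 libraries. A single input library accompanied every one of the 4 cell states. The labels of 6 libraries name the ESC Lamin B list (wild-type, floxed and deleted), those of 4 name the ESC H3K9me2 list (wild-type and floxed), and 2 wild-type libraries name each CM list. Whether ESC values describe wild-type cells alone, or these pooled with the Hdac3 line, is therefore unknown. Domain lists carry no expression values, so the labelled cell types were not checked against marker genes.

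Lamina-associated domains are long parts of chromosomes that touch the protein meshwork under the inner nuclear membrane, of which B-type lamins are a main component. They are poor in active genes, and H3K9me2, laid down chiefly by the methyltransferases G9a and GLP, is typical of them and of their borders. H3K9me2 also occurs in the nuclear interior, so a stretch with the mark and without the lamin can lie beside the lamina or away from it. Borders are where lamina contact can move when a stem cell differentiates.

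Every value below comes from lists that were deposited once each, with no value per library, so neither replicate spread nor sequencing depth is known and no test between cell types could be made. The stretches were chosen by the deposited positions of these same domains, so coverage by the 4 lists and distance to Lamin B describe the choice and support nothing by themselves. Intervals of shares treat stretches or domain ends as independent and cover counting error only. Domain edges fell on grids of 9 kb for ESC Lamin B, 11 kb for CM Lamin B, 10 kb for ESC H3K9me2 and 20 kb for CM H3K9me2, so a stretch of 20 kb spans a single CM H3K9me2 bin. Lamin B domains covered 42.4% of the 2391 Mb span of the autosomes in ESC and 45.9% in CM, and H3K9me2 domains covered 50.9% and 54.2%.

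The 391 flanking stretches held 49.7 Mb, which was 2.08% of the span and 32.9% of all constant H3K9me2 sequence in the 973 stretches. Their lengths ran from 20 to 792 kb, with a median of 83 kb and quartiles of 41.5 and 158.5 kb. Length was very uneven. The 168 stretches of 100 kb or more (43.0%) held 38.5 Mb, or 77.4% of the sequence, and 11 stretches reached 500 kb. At the short end, 89 (22.8%) were under 40 kb. The 582 stretches farther from Lamin B held 101.5 Mb, with a median of 120 kb and a range of 30 to 1190 kb, and only 2 of them were under 40 kb. The 350 flanking stretches that touch Lamin B end there at a Lamin B border, whereas the other 41 and all stretches farther away end at H3K9me2 edges on both sides. The lengths are therefore not measures of like things, and their difference was not tested.

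**Figure D1:**
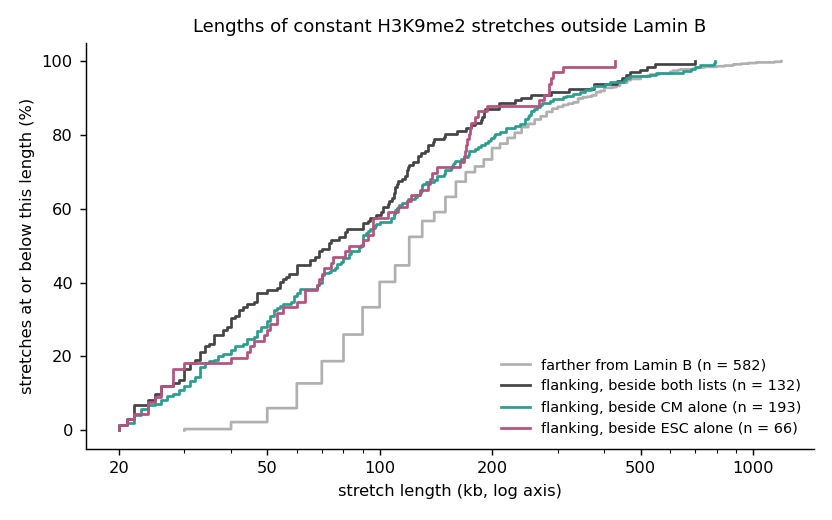
Cumulative share of stretches (vertical axis, %) by length (horizontal axis, kb, log scale) for flanking stretches beside Lamin B of both lists, of CM alone or of ESC alone, and for stretches farther from Lamin B. The 3 flanking curves lie to the left of the curve of farther stretches at short lengths, with medians of 73, 89 and 86.5 kb against 120 kb.

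The thresholds cut through a continuous series of lengths. The shortest members, 6 stretches, were 20 kb long, and the longest that fell short beside Lamin B were 19 kb, with 11 of them. In all, 302 shorter pieces lay beside Lamin B, but they added up to 2.00 Mb. Distance cut less sharply. Of the 391 stretches, 350 (89.5%, 86.1 to 92.2) touched a Lamin B domain, the remaining 41 lay at a median of 13 kb from one, and the farthest 3 lay at 18 kb. The nearest stretches beyond the limit, 2 of them, lay at 21 kb, and 42 lay over 20 and up to 50 kb away. The other stretches stood at a median of 629.5 kb from Lamin B.

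Most flanking stretches had the lamina on a single side. Lamin B lay within 20 kb of 1 end in 356 stretches (91.0%) and of both ends in 35 (8.95%, 6.51 to 12.2). The share at both ends was 1.76% when only domains scoring at least their list's median were used, and 5.36% with a filter at the lower quartile of scores. The 35 had a median length of 73 kb and reached 374 kb, and 31 of them touched Lamin B at both ends, so that H3K9me2 ran without a break from a Lamin B domain across the stretch into the next one. Counting each end, the 391 stretches had 426 edges on the lamina side and 356 outer edges. At all 381 lamina-side edges that touched Lamin B, H3K9me2 of both cell types went on into the Lamin B domain. This follows almost entirely from the rule, because at such an edge it is Lamin B that ends the stretch. H3K9me2 would stop there only if its own domain ended at the same position. There a border of Lamin B lay within continuous H3K9me2, and the stretch was the part of the H3K9me2 domain that extended past it.

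The longest stretches show this arrangement. The longest was chr12:15708001-16500000 (mm9), 792 kb. It touched the end of a CM Lamin B domain at 13629001-15708000, whereas the ESC Lamin B domain at the same place ended 291 kb earlier, at 15417000. H3K9me2 ran through all of it, at 13470001-16510000 in ESC and 13520001-16500000 in CM. The H3K9me2 domains of both cell types thus ended within 10 kb of each other, while the Lamin B border lay nearer to them in CM.

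Chromosome 14 gave the next examples. The stretches chr14:22940001-23661000 (721 kb) and chr14:24123001-24820000 (697 kb) lay on either side of a CM Lamin B domain of 462 kb, at 23661001-24123000. The nearest ESC Lamin B domains were 3068 kb below the first stretch and 11243 kb above the second. H3K9me2 covered the whole region in both cell types, at 22840001-24820000 in ESC and 22940001-24820000 in CM, so a CM Lamin B domain lay inside an H3K9me2 domain that ESC had without Lamin B. Another stretch on this chromosome, chr14:29733001-30520000 (787 kb), touched a CM Lamin B domain of 297 kb at 29436001-29733000. There the ESC H3K9me2 domain began at 29360001, just before that Lamin B domain, and the CM H3K9me2 domain began earlier, at 28580001. The 76 kb at 29360001-29436000 were a flanking stretch as well, so this Lamin B domain also had one on either side. The nearest ESC Lamin B domains were 9861 kb below and 5543 kb above the 787 kb stretch.

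The longest stretch with a border that held its place was chr1:61020001-61721000, 701 kb. Lamin B began at 61721001 in CM and 10 kb farther, at 61731001, in ESC, and H3K9me2 of both cell types began at 61020001. The longest stretch beside ESC Lamin B alone was chr11:63940001-64368000, 428 kb. It touched an ESC Lamin B domain of 324 kb at 64368001-64692000, and the nearest CM Lamin B domain on that side lay 1302 kb away. H3K9me2 covered the stretch and the ESC Lamin B domain in both cell types, ending at 64700000 in each.

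Among stretches with Lamin B at both ends, chr15:67903001-68277000 was the longest, 374 kb. It lay inside H3K9me2 domains of 5330 kb in ESC and 5540 kb in CM. CM Lamin B touched both of its ends, and ESC Lamin B stood 16 kb from the lower and 33 kb from the upper end. The next were chr7:122337001-122625000 (288 kb), which ESC Lamin B touched at both ends and CM Lamin B approached to 6 and 69 kb, and chr8:92796001-93051000 (255 kb). The chromosome 8 stretch touched CM Lamin B at its lower end and ESC Lamin B at its upper end, where the nearest CM domain lay 2572 kb away. It was the only 1 of the 132 stretches beside both lists that met each list at another edge.

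**Figure D2:**
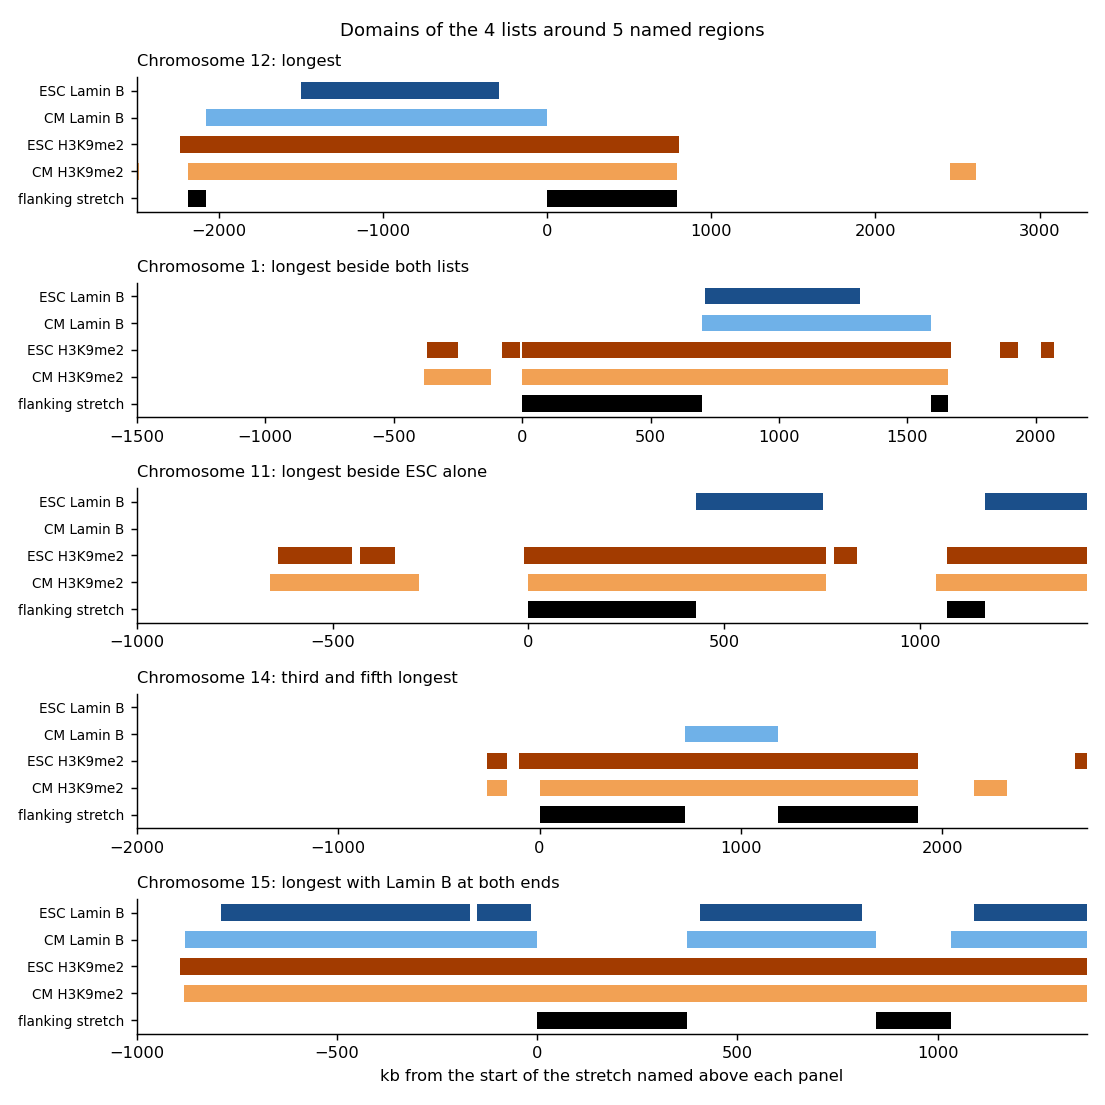
Domains of the 4 lists (coloured bars) and flanking stretches (black bars) around 5 named regions, by distance in kb from the start of the stretch in the panel title. H3K9me2 bars cross the ends of the Lamin B bars in each panel, and on chromosome 14 a CM Lamin B domain of 462 kb without an ESC counterpart lies between stretches of 721 and 697 kb.

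The Lamin B domain beside a flanking stretch belonged more often to CM alone than to ESC alone. Within 20 kb of an edge, 193 stretches (49.4%, 44.4 to 54.3) had Lamin B of CM alone, 132 (33.8%, 29.3 to 38.6) of both lists and 66 (16.9%, 13.5 to 20.9) of ESC alone. CM-alone stretches held 27.0 Mb, stretches beside both lists 15.2 Mb and ESC-alone stretches 7.52 Mb. The lengths overlapped widely, with medians of 89, 73 and 86.5 kb. CM alone outnumbered ESC alone 2.92 times.

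This order has to be read against all borders of Lamin B. When the Lamin B domains of ESC and CM were joined, they had 1632 ends, of which 44.8% were a border of CM alone, 41.4% of both lists within 20 kb and 13.8% of ESC alone. Constant H3K9me2 extended at least 20 kb past 381 of these ends (23.3%, 21.4 to 25.5), and at least 100 kb past 165 (10.1%). By kind of border, it did so at 190 of 731 CM-alone ends (26.0%, 22.9 to 29.3), at 70 of 225 ESC-alone ends (31.1%, 25.4 to 37.4) and at 121 of 676 ends common to both lists (17.9%, 15.2 to 21.0). The excess of CM-alone over ESC-alone stretches was thus present among all Lamin B ends. Borders that stood apart in ESC and CM carried constant H3K9me2 past them at a higher share than borders in the same place, for both directions. These shares were not tested against each other.

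Constant H3K9me2 lay just inside 726 of the 1632 ends (44.5%), and at 381 of these 726 (52.5%, 48.8 to 56.1) it also ran 20 kb or more beyond the end. Of the 816 joined domains, 517 (63.4%) touched no flanking stretch, 217 (26.6%) touched one at a single end and 82 (10.0%) at both ends. Median lengths of these domains were 414, 522 and 357.5 kb. The individual Lamin B domains beside flanking stretches were of ordinary size for their lists. Their median length was 531 kb for 184 ESC domains, against 490.5 kb for all 708, and 429 kb for 275 CM domains, against 407 kb for all 826.

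At edges beside both lists, the border differed little between cell types. There were 133 such edges, and the borders of ESC and CM stood a median of 5 kb apart, at most 20 kb by the rule. In 109 of them (82.0%) the distance was 11 kb or less, which is the bin width of the CM Lamin B list. The CM border was nearer to the stretch at 61 edges, the ESC border at 63 and neither at 9, so no direction stood out within the width of the bins.

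**Figure D3:**
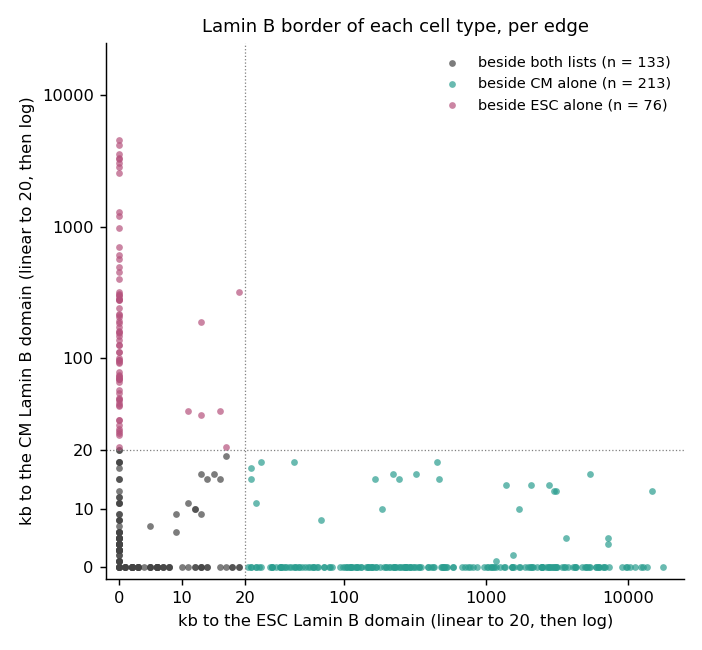
Distance from each lamina-side edge to the nearest ESC (horizontal) and CM (vertical) Lamin B domain on that side, in kb, with axes linear to 20 kb and logarithmic above, and dotted lines at the 20 kb limit. Most points lie on an axis because the edge touches a domain, and the 217 edges beside CM alone, of which 4 have no ESC domain on that side and are not drawn, reach farther than the 76 beside ESC alone.

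Where the border belonged to CM alone, the nearest ESC Lamin B domain on that side was often far away. Over the 213 such edges with an ESC domain on that side, the distance to it had a median of 387 kb and quartiles of 111 and 2474 kb. The ESC domain was within 100 kb at 48 of 217 edges (22.1%). It was over 1 Mb away at 88 (40.6%), a count that includes the edges with no ESC domain on that side. At the 76 edges beside ESC alone, the CM domain stood at a median of 142.5 kb, within 100 kb at 33 (43.4%) and over 1 Mb away at 10 (13.2%).

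These edges were of 2 kinds. At 97 of the 217 CM-alone edges (44.7%), the CM Lamin B domain overlapped an ESC domain and extended beyond it, by a median of 101 kb up to the ESC border. These CM domains were long, with a median of 990 kb. At the other 120 edges (55.3%, 48.6 to 61.8), the CM domain overlapped no ESC Lamin B domain and was short, with a median of 176 kb. At the 76 ESC-alone edges, 49 (64.5%, 53.3 to 74.3) belonged to an ESC domain that overlapped a CM domain, with a median of 72 kb to the CM border, and 27 (35.5%) to an ESC domain with no CM counterpart, with a median of 162 kb.

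The strips between the borders carried H3K9me2 in both cell types. Between a flanking stretch and the ESC border of the same domain lay 97 strips of CM-only Lamin B, 14.7 Mb in all, of which ESC H3K9me2 domains covered 93.6% and CM H3K9me2 domains 99.1%. In the opposite direction, 49 strips of ESC-only Lamin B held 4.504 Mb, with 98.3% covered by H3K9me2 in ESC and 98.5% in CM. At these places the Lamin B border differed between ESC and CM along sequence that was mostly H3K9me2 in both, on the lamina side of the stretch. The rule itself requires H3K9me2 in both cell types right beside the strip, and strips without a flanking stretch were not measured for comparison.

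Some short Lamin B domains of a single cell type also lay within constant H3K9me2. Of the 205 CM Lamin B domains that overlapped no ESC domain, 84 (41.0%, 34.5 to 47.8) lay beside a flanking stretch, against 191 of the 621 CM domains with an ESC counterpart (30.8%, 27.3 to 34.5). Of these 84, 36 had a flanking stretch at both ends, as the chromosome 14 domains described above had. ESC H3K9me2 covered 98.7% and CM H3K9me2 100% of the 9.54 Mb in these 36 domains. In the 48 with a stretch at a single end, ESC H3K9me2 covered 84.6% and CM H3K9me2 95.8%. The 121 CM domains without ESC counterpart and without a flanking stretch had 45.1% ESC and 70.2% CM coverage. The high coverage of the 36 and the 48 domains and the lower coverage of these 121 partly follow from the rule. A flanking stretch needs H3K9me2 beside the domain in both cell types, and the 36 had one at both ends. For ESC, 21 of 44 Lamin B domains without CM counterpart (47.7%) lay beside a flanking stretch, against 163 of the 664 with one (24.5%, 21.4 to 28.0), and 6 had a stretch at both ends.

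**Figure D4:**
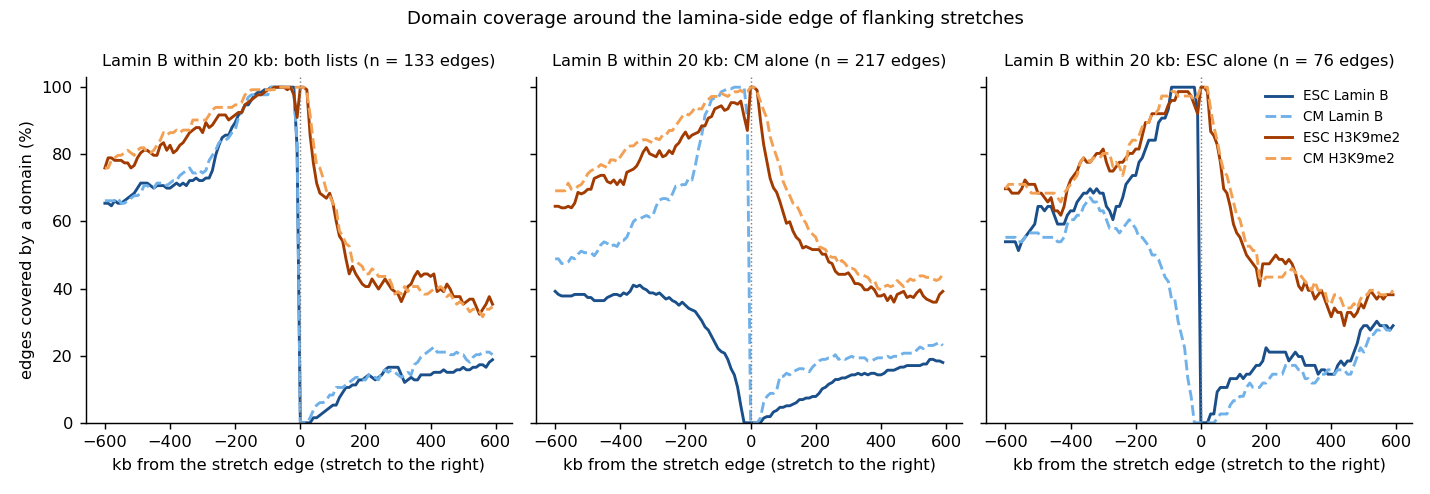
Share of lamina-side edges (vertical axis, %) at which a domain of each list covers the position, by distance in kb from the edge (0, dotted), with the stretch to the right and the lamina to the left, for edges beside both lists, CM alone and ESC alone. Lamin B is absent just to the right of the edge by the rule, and both H3K9me2 lines lie above the Lamin B lines on the lamina side at 200 kb.

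Coverage around the edges showed how far the H3K9me2 of each cell type reached. At the 217 CM-alone edges, CM Lamin B covered 96.8% and ESC Lamin B 22.1% of positions 100 kb into the lamina side, while ESC and CM H3K9me2 covered 94.0% and 97.2%. At the 76 ESC-alone edges, the corresponding values were 42.1% for CM and 93.4% for ESC Lamin B, and 94.7% and 97.4% for ESC and CM H3K9me2. At the 133 edges beside both lists, all 4 lists covered 97.7% to 99.2%. These values partly follow from the choice, since edges were classed by Lamin B within 20 kb and lay at H3K9me2 of both cell types. On the stretch side, over all 426 edges, H3K9me2 coverage fell to 62.9% in ESC and 68.8% in CM at 100 kb, to 47.4% and 49.8% at 200 kb, and to 36.2% and 39.4% at 500 kb. The last values were below the coverage of the whole span, 50.9% and 54.2%. At the CM-alone edges, Lamin B was at 17.1% in ESC and 20.7% in CM at 500 kb.

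At the outer edge, CM H3K9me2 reached farther more often than ESC H3K9me2 did, but by no more than 20 kb at many edges. Of the 356 outer edges, H3K9me2 went on in CM at 199 (55.9%, 50.7 to 61.0), in ESC at 67 (18.8%, 15.1 to 23.2), and ended in both at the same place at 90 (25.3%). The edge was close in both cell types at 208 (58.4%, 53.2 to 63.4), where the longer of the H3K9me2 domains went on by no more than 20 kb, the width of a CM H3K9me2 bin. Where it went on, CM H3K9me2 did so by a median of 50 kb and ESC H3K9me2 by a median of 10 kb. Continuation by over 100 kb was seen at 72 edges in CM and at 3 in ESC. The autosomes had 2431 H3K9me2 domains in ESC and 1140 in CM, and the part that this finer division of the ESC list plays in where its domains end was not tested.

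Stretches farther from Lamin B had the same order, with H3K9me2 going on in CM at 814 of 1164 edges (69.9%, 67.2 to 72.5) and in ESC at 153 (13.1%). Their edges ended within 20 kb in both cell types at 480 (41.2%, 38.4 to 44.1), a lower share than the 58.4% of the outer edges of flanking stretches. CM H3K9me2 went on by over 100 kb at 37.4% of them, against 20.2%. These differences were not tested. After the outer edge of a flanking stretch, the next sequence in both H3K9me2 lists followed at a median of 455 kb. After an edge of a stretch farther away it followed at a median of 260 kb, which was not tested either.

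The H3K9me2 domains that held flanking stretches were long for their lists. In ESC, 312 of 2431 domains (12.8%) held at least 1, and their median length was 550 kb against 140 kb for all. In CM, 277 of 1140 (24.3%) did, with a median of 1020 kb against 460 kb. The part of domain length itself in which domains held a stretch was not tested. A stretch made up a median of 14.4% of its ESC and 7.33% of its CM H3K9me2 domain. Of the 277 CM domains, 188 held 1 flanking stretch, 69 held 2 and 20 held 3 or more, with at most 4. Stretches in the same domain share its source. The share of such a domain that lay in Lamin B of its own cell type had a median of 55.1% in ESC, against 0% for all ESC H3K9me2 domains. In CM the median was 72.0%, against 70.3% for all CM ones. Domains with a flanking stretch lie beside Lamin B by the rule, whereas all domains include those far from it. These contrasts therefore partly follow from the choice.

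Flanking stretches were found on all 19 autosomes, but unevenly. They took 1.80 to 39.5 kb per Mb of span, with a median of 23.8, while stretches farther away took 21.7 to 61.4 kb per Mb. Chromosome 14 had the most, 39.5 kb per Mb in 21 stretches, followed by chromosome 18 with 37.6 in 24 and chromosome 15 with 34.5 in 29. The lead of chromosome 14 rested on its 3 longest stretches, which lay within 7.58 Mb. Without these 3, its value was 21.4 kb per Mb. By share of Lamin B ends with a flanking stretch, chromosome 15 came first, at 29 of 74 (39.2%), and chromosome 14 had 20 of 72 (27.8%).

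Chromosome 16 had the fewest, 3 stretches with 170 kb in all, or 1.80 kb per Mb. Only 3 of its 68 Lamin B ends (4.41%) had constant H3K9me2 for 20 kb or more beyond them, against a median of 22.4% over chromosomes. Its stretches were chr16:25245001-25350000 (105 kb), chr16:25740001-25780000 (40 kb) and chr16:55755001-55780000 (25 kb). The ESC H3K9me2 domains that held them were 280, 190 and 260 kb long, above the 140 kb median of all ESC H3K9me2 domains and below the 550 kb median of those that held flanking stretches. The CM H3K9me2 domains that held them were 3740 kb, the same one for the first pair, and 5040 kb. ESC H3K9me2 covered 46.7% and ESC Lamin B 44.4% of chromosome 16, a difference of 2.32 points that was the smallest of the 19 autosomes. In CM the difference was 9.74 points, at 62.2% and 52.5%.

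CM-alone stretches outnumbered ESC-alone ones on 16 of 19 chromosomes. Among all Lamin B ends, 731 were a border of CM alone and 225 of ESC alone. These ends were not counted by chromosome, so the counts of stretches have no such background here. Chromosomes other than 14 and 16 are named here after their values were seen. The balance differed most on chromosome 12, with 20 against 1, and chromosome 15, with 16 against 0. It was the other way on chromosome 2, with 8 CM-alone and 10 ESC-alone stretches, and on chromosome 11, with 3 and 6, while chromosome 16 had 1 of each. Lamin B covered less of chromosome 11 in CM (29.6%) than in ESC (32.5%), and on chromosome 2 the values were 44.5% and 44.2%. It covered more in CM than in ESC on chromosome 12 (45.4% and 40.0%) and on chromosome 15 (51.7% and 46.6%). Neighbouring flanking stretches stood a median of 2204 kb apart, and 134 of 372 neighbouring pairs (36.0%) lay within 1 Mb.

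**Figure D5:**
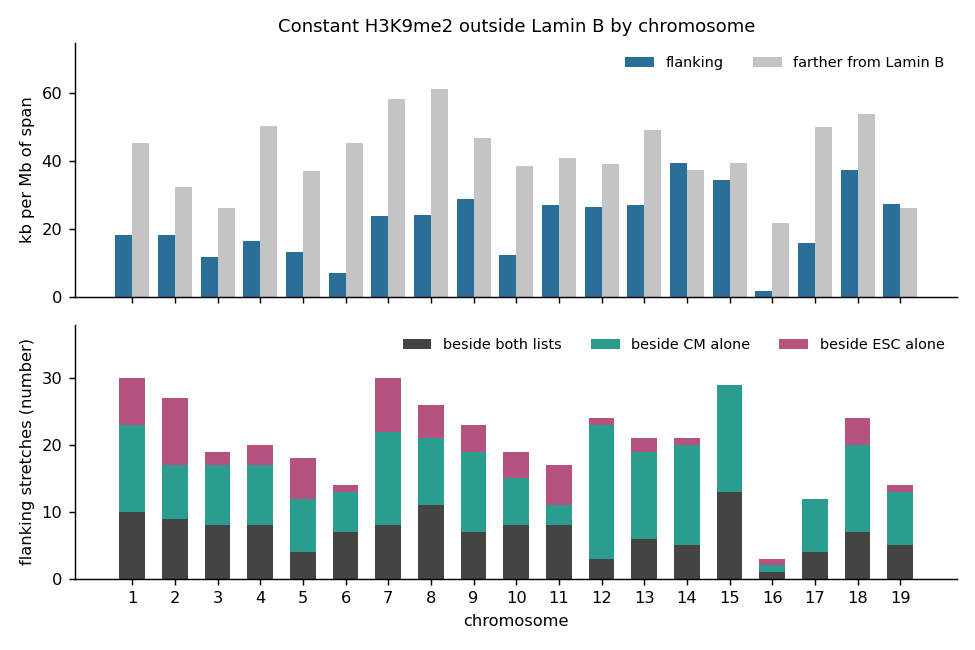
Upper panel, kb of constant H3K9me2 outside Lamin B per Mb of chromosome span, for flanking stretches and for stretches farther from Lamin B. Lower panel, number of flanking stretches by the list of the Lamin B domain beside them, with chromosome 14 highest per Mb (39.5 kb) and chromosome 16 lowest (1.80 kb, 3 stretches).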

How the data were processed

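The authors deposited 4 lists of enriched domains, 1 for each cell type (ESC, CM) and antibody (Lamin B, H3K9me2), with the start and end of each domain in build mm9. The submitters' processing notes name STAR, Picard and deepTools, without versions. The settings, per the file headers, were g 10, bin auto and fdr 5. Neither the domain caller nor the way libraries were combined is given in the sources used here. Each domain also carries a score deposited by the authors, on an unstated scale, which served only to filter domains within a list. Depth is unknown.

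Domains of chromosomes 1 to 19 were placed on a 1 kb grid in Python 3.11.15, using pandas 2.3.3 and numpy 2.4.6. The span of a chromosome was taken between the outermost domain edges of any list. Wilson 95% intervals came from scipy 1.17.1, and figures from matplotlib 3.10.9. No test was run. The rule for stretches was checked on simulated domains, in which H3K9me2 always began at or past the end of Lamin B. That check did not cover H3K9me2 crossing a Lamin B border, Lamin B at both ends, or ESC and CM borders at different positions. Regions named were the longest overall and of each kind, the longest with Lamin B at both ends, and those of the chromosomes with most and least per Mb. The members and these rules were chosen with earlier results of these data known. Alternatives changed the thresholds, score filter, gaps, edges, grid, lists and chromosomes. The annotation and sequence tables given were of another build, so genes, sequences and base composition were not analysed here.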

Additional observations from a re-analysis of the deposited data

How the results depend on the processing

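The alternatives, 15 in all, were planned, and 63 of 88 recomputed values stayed within 1.5 times the value (numbers, amounts) or within its 95% interval (medians, shares). The number of flanking stretches was 168 with a minimum length of 100 kb and 170 when only domains scoring at least their list's median were used, the latter with 28.6 Mb. Their median length was 110 and 174.5 kb with a minimum of 40 and 100 kb, 111 kb with that score filter, 104 kb with a filter at the lower quartile of scores, 107 kb after merging across gaps under 50 kb, 60 kb in bins of 20 kb and 96 kb outside the ESC Lamin B list only. Lamin B lay at both ends of 1.76% and 5.36% under the median and the lower-quartile score filter. The share beside both lists was 4.57% for edges that touch Lamin B, 44.1% and 51.5% for distances up to 50 and 100 kb, and 39.9% in bins of 20 kb. The flanking share of constant stretches was 34.2% and 30.2% with a minimum of 40 and 100 kb, 36.0%, 44.5% and 49.5% for distances of 0, 50 and 100 kb, 48.9% after merging, 33.3% with H3K9me2 narrowed by 1 bin, 52.3% in bins of 20 kb and 35.3% outside the ESC Lamin B list only. Minimum lengths and distances move these values by construction, and for the other settings the cause was not tested. CM-alone stretches outnumbered ESC-alone ones in all 13 alternatives that use both Lamin B lists, by 1.96 to 4.71 times. All Lamin B ends had the same order at the main setting, with 731 of CM alone and 225 of ESC alone. The share beside both lists has no value where a single Lamin B list is used. Distal chromosome 3, from the start of its longest run of CM-only Lamin B, held no constant H3K9me2 stretch outside Lamin B. Leaving it out could therefore change none of the values, which are counted among the 63. That setting is also among the 13 alternatives above. No paired analysis was possible because every list stands for its libraries together, which also means that leaving out single libraries could not be done. Depth is unknown, so whether an absent domain was detectable in a given list cannot be said.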

Other observations

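Chromosome X lay outside the rule. By the same thresholds it held 12 flanking stretches with 0.961 Mb, or 5.88 kb per Mb, which was below every autosome but chromosome 16. Their median length was 48.5 kb and the longest was 311 kb. Lamin B of CM alone lay beside 9 of them, of both lists beside 2 and of ESC alone beside 1. Of 182 ends of joined Lamin B domains on X, 9 (4.95%) had constant H3K9me2 for 20 kb or more beyond them, close to the 4.41% of chromosome 16 and far from the 23.3% of all autosomal ends. X and chromosome 16 were set side by side after their values were seen.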
